A study of Mus musculus with 30 samples.

Results

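Pou5f1, Sox2 and Nanog encode the core transcription factors of pluripotent mouse cells, and every peak of 20 deposited ChIP-seq peak lists within 120 kb of these 3 gene bodies was collected and described. The collection held 2790 of 1428772 listed peaks, of which 749 lay around Pou5f1, 784 around Sox2 and 1257 around Nanog. In the mouse genome build GRCm38, with GENCODE M21 annotation, Pou5f1 lies at chr17:35506018-35510772, Sox2 at chr3:34650405-34652461 and Nanog at chr6:122707489-122714633, all on the + strand. Distances below are given from the start of the gene, negative on the upstream side.

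The cells were E14 mouse embryonic stem cells of the genotype CTCF AID, in which CTCF carries a degron that the auxin IAA triggers, grown without serum on gelatin in N2, B27, LIF, PD0325901 and CHIR99021. Every group carried this degron, the untreated ones included, and untreated cells (0 h) were compared with cells after 12 hours of IAA (12 h). CTCF and SMC1A, a core subunit of the cohesin ring, were profiled in 1 library per time. The chromatin remodelers CHD4, CHD8, SMARCA4 and SMARCA5 were profiled through a biotin tag in lines named CTCF AID and biotin-CHD4, biotin-CHD8, biotin-SMARCA4 or biotin-SMARCA5, with 2 libraries per remodeler and time, 16 in all. The labels do not say whether a line is 1 clone or whether replicates came from separate cultures, so the p-values below measure only the spread between these libraries. Read depth is unknown from the peak lists, and peak lists measure no transcripts, so the cell type was not checked against expressed markers. The lists held 29934 CTCF peaks at 0 h and 2248 at 12 h, 16724 and 10 SMC1A peaks, and between 40880 and 187294 peaks in each remodeler library. Both CHD4 replicate 2 libraries stood apart, with the longest list at each time and a median peak width of 119 and 94 bp against 433 and 475 bp in replicate 1.

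POU5F1 and SOX2 bind DNA as a pair at a composite motif, and together with the homeodomain factor NANOG they occupy their own enhancers and those of other pluripotency genes. In embryonic stem cells Pou5f1 is driven by enhancers just upstream of its start, Sox2 by a control region far downstream of the gene, with SRR1 and SRR2 as nearer regulatory regions, and Nanog by enhancers on both sides of the gene. CTCF binds a long directional motif and halts the cohesin ring as it extrudes DNA, which anchors loops and domain borders. CHD4 is the ATPase of the NuRD complex, CHD8 a chromodomain ATPase, SMARCA4 the ATPase of BAF complexes in these cells, and SMARCA5 the ATPase of ISWI complexes, which space nucleosomes next to bound CTCF.

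The 3 windows held 39 CTCF peaks at 0 h, numbered from the lowest coordinate in each window, and 34 of them held a match to a 17-base motif model built from the CTCF peaks themselves. In the sequences below, taken from GRCm38 and read along the strand of the motif, the capitals mark the matched 17 bases, whose position precedes each sequence. The 6 sites that were still listed at 12 h are shown first because they are the CTCF positions that remained, none of them around Nanog.
Pou5f1 CTCF site 5, chr17:35484252-35484268, + strand: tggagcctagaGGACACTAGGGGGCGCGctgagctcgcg
Pou5f1 CTCF site 15, chr17:35578369-35578385, + strand: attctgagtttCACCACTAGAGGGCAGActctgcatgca
Pou5f1 CTCF site 16, chr17:35584464-35584480, + strand: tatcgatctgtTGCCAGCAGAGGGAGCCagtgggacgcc
Pou5f1 CTCF site 17, chr17:35590993-35591009, + strand: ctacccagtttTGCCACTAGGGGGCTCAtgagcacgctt
Sox2 CTCF site 4, chr3:34640895-34640911, - strand: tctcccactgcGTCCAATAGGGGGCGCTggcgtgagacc
Sox2 CTCF site 5, chr3:34647885-34647901, + strand: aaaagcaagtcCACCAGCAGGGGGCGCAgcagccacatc

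None of these 6 matches lay wholly in a repeat masked in the genome sequence. At Pou5f1 site 5, 7 bases of the match were masked. Of the 28 matches at sites no longer listed at 12 h, 8 (28.6%) lay wholly in such a repeat. Over all matched CTCF sites the shares were 8.73% for those still listed at 12 h and 25.1% for those not listed. Examples of the repeat-borne sites, all lost from the list at 12 h, show the form of the motif these copies carry.
Pou5f1 CTCF site 8, chr17:35514073-35514089, - strand: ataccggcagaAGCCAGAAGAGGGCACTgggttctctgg
Sox2 CTCF site 2, chr3:34601299-34601315, + strand: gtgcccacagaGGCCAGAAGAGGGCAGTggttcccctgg
Nanog CTCF site 1, chr6:122593107-122593123, - strand: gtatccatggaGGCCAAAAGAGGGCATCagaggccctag
Nanog CTCF site 7, chr6:122699835-122699851, + strand: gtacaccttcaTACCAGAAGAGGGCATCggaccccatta

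Pou5f1 CTCF sites 1 to 4 lie in the H2-Q cluster of histocompatibility genes and are similar copies, shown here because reads from one copy may have been assigned to another. The bases within 100 bp of their summits were 88.1% to 94.5% identical between sites 1, 2 and 4, and 77.1% to 80.6% identical between site 3 and the others, so their separate values are uncertain.
Pou5f1 CTCF site 1, chr17:35389983-35389999, + strand: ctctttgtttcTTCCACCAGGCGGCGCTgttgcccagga
Pou5f1 CTCF site 2, chr17:35420662-35420678, + strand: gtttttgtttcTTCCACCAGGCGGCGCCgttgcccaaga
Pou5f1 CTCF site 3, chr17:35435035-35435051, + strand: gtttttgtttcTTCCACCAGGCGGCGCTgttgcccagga
Pou5f1 CTCF site 4, chr17:35465869-35465885, + strand: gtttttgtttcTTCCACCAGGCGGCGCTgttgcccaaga

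Most CTCF peaks and every SMC1A peak at the 3 loci were no longer listed after 12 h of IAA. Of 39 CTCF peaks at 0 h, 33 (84.6%) had no CTCF peak at 12 h, beside 92.6% of all 29934 CTCF peaks. The share was 14 of 18 (77.8%, exact Clopper-Pearson 95% interval 52.4 to 93.6) around Pou5f1, 5 of 7 (71.4%, 29.0 to 96.3) around Sox2 and 14 of 14 (100%, 76.8 to 100) around Nanog. Each interval includes 92.6%, and no window is called different from the whole list. The intervals cover counting error only and take the peaks of 1 library per time as independent. Peaks are not replicates, and Pou5f1 sites 1 to 4 may share reads, so these shares are a description. Fold enrichment, the authors' own peak height over background, was 9.57 to 49.1 (median 22.1) at 0 h for the 6 sites still listed and 3.61 to 30.5 (median 14.2) for the 33 that were not. The ranges overlap over most of their length. The 39 SMC1A peaks of the windows at 0 h, 11 around Pou5f1, 10 around Sox2 and 18 around Nanog, all lacked a peak at 12 h, beside 99.9% of all SMC1A peaks. The whole SMC1A list at 12 h held 10 peaks, from 1 library, and the part of that library's quality in the result was not tested. A peak missing from a list was below the authors' threshold, which is not the same as an absence of protein.

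Cohesin was listed at CTCF sites of all 3 loci and also at sites without CTCF. At 0 h an SMC1A peak overlapped 8 of 18 CTCF peaks (44.4%) around Pou5f1, 6 of 7 (85.7%) around Sox2 and 9 of 14 (64.3%) around Nanog, beside 46% of all CTCF peaks. The share of CTCF peaks with cohesin around Pou5f1 was 29.4% with −log10 q of at least 5 in both lists and 63.6% in the stronger part of the CTCF list above its median −log10 q, so it has no firm side of the 46%. An SMC1A peak without any CTCF peak was found at 3 of 11 positions (27.3%) around Pou5f1, 4 of 10 (40%) around Sox2 and 9 of 18 (50%) around Nanog, beside 18.3% of all SMC1A peaks. Several of these 16 cohesin peaks without CTCF lay on the promoters and enhancers described below, and they had modest fold enrichment, between 2.80 and 6.63. With 1 library per time, these shares have no replicate check.

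At the Pou5f1 locus CTCF flanked the gene closely and stayed listed at 4 of 18 sites. The nearest sites to the gene were site 6 at -9.3 kb (fold 3.61), site 7 at 3.5 kb in a coding exon of Pou5f1 (fold 9.19) and site 8 at 8.1 kb in an intron of Tcf19, a gene for a chromatin-binding protein (fold 26.5). All 3 were gone from the list at 12 h, although sites 7 and 8 carried some of the higher cohesin peaks of the window (SMC1A fold 7.94 and 9.03). The upstream site 5 at -21.8 kb, between the H2-Q genes and Pou5f1, was kept, with fold 22.1 at 0 h and 12.8 at 12 h and with the highest SMC1A fold of the window at 0 h (9.14). Downstream, sites 15, 16 and 17 at 72.4, 78.4 and 85.0 kb were kept, with fold 49.1, 9.57 and 26.2 at 0 h and 13.6, 4.5 and 15.6 at 12 h. The motifs at all 4 kept sites lie on the + strand, as do most matched motifs of this window, lost sites included. Only the matches at sites 7, 8 and 9 lie on the - strand. Site 16 carried no SMC1A peak, so the kept sites were not uniformly those with cohesin. The 3 SMC1A peaks without CTCF lay at -3.1 kb, at the edge of the upstream enhancers (fold 4.22), at 1.2 kb inside the gene (4.14) and at 10.5 kb (3.38).

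**Figure D1:**
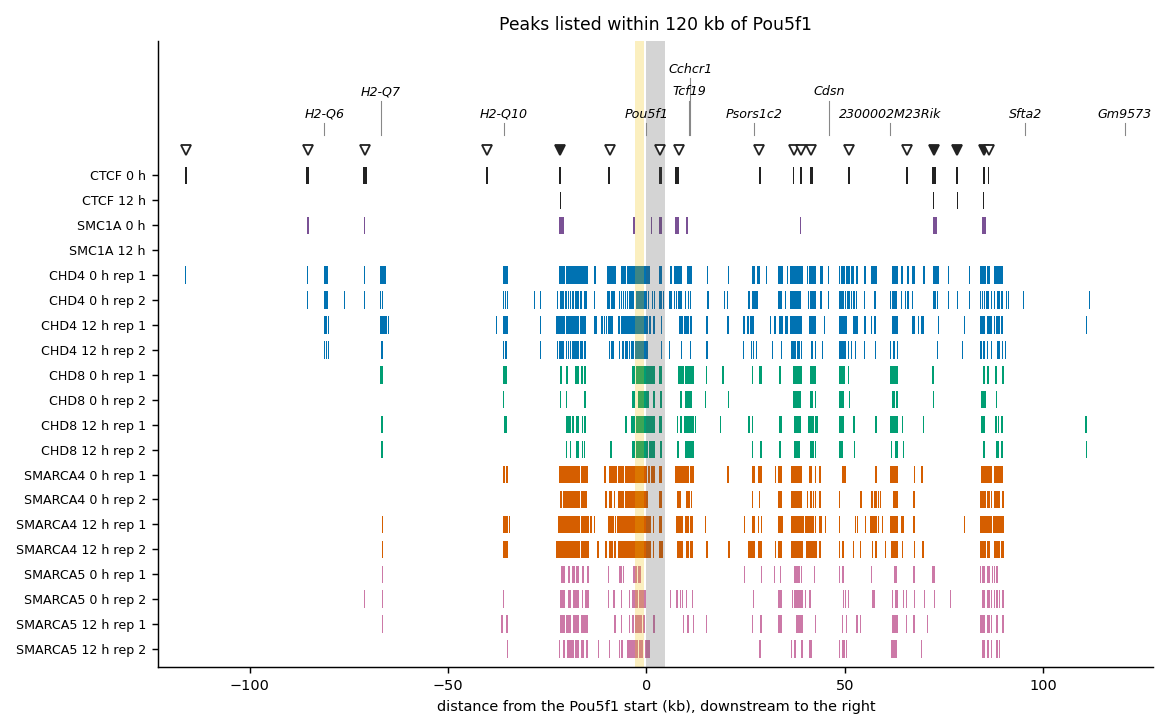
Peaks of each of the 20 libraries (rows) against the distance from the Pou5f1 start in kb, with open triangles for CTCF sites listed at 0 h only and filled triangles for those also listed at 12 h. The grey band is the gene body and the yellow band the known upstream enhancers. CTCF peaks fall from 18 to 4 and SMC1A peaks from 11 to 0, while every remodeler library keeps peaks over the yellow band.

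The Pou5f1 promoter, taken as 500 bp on either side of the start, was listed in 15 of 16 remodeler libraries; 24.9% of all 21951 protein-coding promoters were listed in all 16. To compare lists of different lengths, each promoter was given a rank, its percentile among all promoters in that library by the −log10 p of its strongest peak, with 0 for no listed peak. CHD4 ranks were 99.2 and 99.6 at 0 h and 99.8 and 99.4 at 12 h. SMARCA4 ranks were 99.9 and 99.9 at 0 h and 99.8 and 99.8 at 12 h, which places the Pou5f1 promoter among the top promoters for both remodelers at both times. CHD8 ranks were lower, 66.9 and 64.1 at 0 h and 61.9 and 72.7 at 12 h, and the times overlapped. SMARCA5 ranks were 0 and 98.3 at 0 h and 52.2 and 68.6 at 12 h, so the replicates at 0 h disagreed over the whole scale. The mean change over the 4 remodelers was 3.29 points upward with an exact permutation p of 0.799 (adjusted p = 1, Benjamini-Hochberg over all promoters). Only SMARCA4 separated the times, with both 12 h libraries below both 0 h libraries, as at 13.3% of all promoters, and by a small step at the top of the scale.

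Much of the signal assigned to the Pou5f1 promoter had its summit in the upstream enhancer stretch. Broad peaks of 2740 to 8454 bp covered both in the CHD4, CHD8 and SMARCA4 libraries, with CHD8 summits at -1.95 and -1.96 kb at 0 h and -1.95 and -1.95 kb at 12 h. SMARCA4 summits lay at -1.94 and -1.90 kb at 0 h and -1.33 and -1.91 kb at 12 h. CHD4 summits lay at -1.90 and -0.97 kb at 0 h and -0.84 and -0.99 kb at 12 h, nearer the start in 3 of 4 libraries. Every remodeler library listed a peak in the enhancer interval from -3 to -0.5 kb, and the strongest peak there stood at or above the 99.4th percentile of its own list in all CHD4 and SMARCA4 libraries. SMARCA5 also held smaller peaks here, at percentiles 85.9 and 97.8 at 0 h and 83.1 and 91.2 at 12 h of its lists. No SMARCA5 peak reached the promoter in replicate 1 at 0 h, and a peak in the enhancer was listed in that library.

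Other remodeler-bound distal regions around Pou5f1 gave 25 of the 112 in the 3 windows. A distal region is a stretch covered by peaks of at least 8 of the 16 remodeler libraries and more than 1 kb from any protein-coding start, and 42675 were found in the genome. Its rank is taken among all distal regions. Of the 112, 20 were listed in all 16 libraries, as were 14.9% of all distal regions. Around Pou5f1 these were region 2 at -18.6 kb, region 3 at -15.7 kb, region 13 at 37.8 kb, region 20 at 84.8 kb and region 24 at 88.6 kb. Region 2 had the highest median rank of these, 92.6, and a change of 5.92 points (exact permutation p = 0.0247, adjusted p = 0.381). Its CHD4 ranks were 97.6 and 97.2 at 0 h and 99.5 and 99.1 at 12 h, so CHD4 separated upward, as at 16.5% of distal regions, and so did CHD8, as at 14.5%. Region 23 at 87.6 kb, which was singled out after its values were seen, had a change of -39.2 points (exact permutation p = 0.0278, adjusted p = 0.381), with SMARCA5 ranks of 83.3 and 89.2 at 0 h and no peak in either 12 h library.

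At the Sox2 locus the CTCF sites nearest the gene were the ones still listed at 12 h. Site 5 at -2.5 kb, just upstream of the promoter, had fold 17.5 at 0 h and 8.24 at 12 h, and site 4 at -9.5 kb had 22.1 and 12.6. Site 3 at -11.0 kb was lost with fold 21.6 at 0 h, nearly that of its kept neighbour. Sites 1 to 5 all lie in introns of Sox2ot, the long non-coding transcript that spans Sox2. Downstream, no CTCF peak was listed until site 6 at 109.7 kb (fold 20.2), inside the Sox2 control region, and site 7 at 121.8 kb (fold 11.8), and both were lost. SMC1A at 0 h marked site 2 (fold 9.57), site 3 (5.08), site 4 (5.06), site 5 (7.42), site 6 (7.60) and site 7 (4.62), which leaves site 1 as the single CTCF site of the window without cohesin.

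Cohesin without CTCF was listed at the Sox2 promoter at -0.5 kb (fold 3.18) and at 6.1, 18.1 and 84.7 kb (3.38, 3.56 and 3.83). Those peaks were small in their list, the promoter one at its 2.18th percentile.

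**Figure D2:**
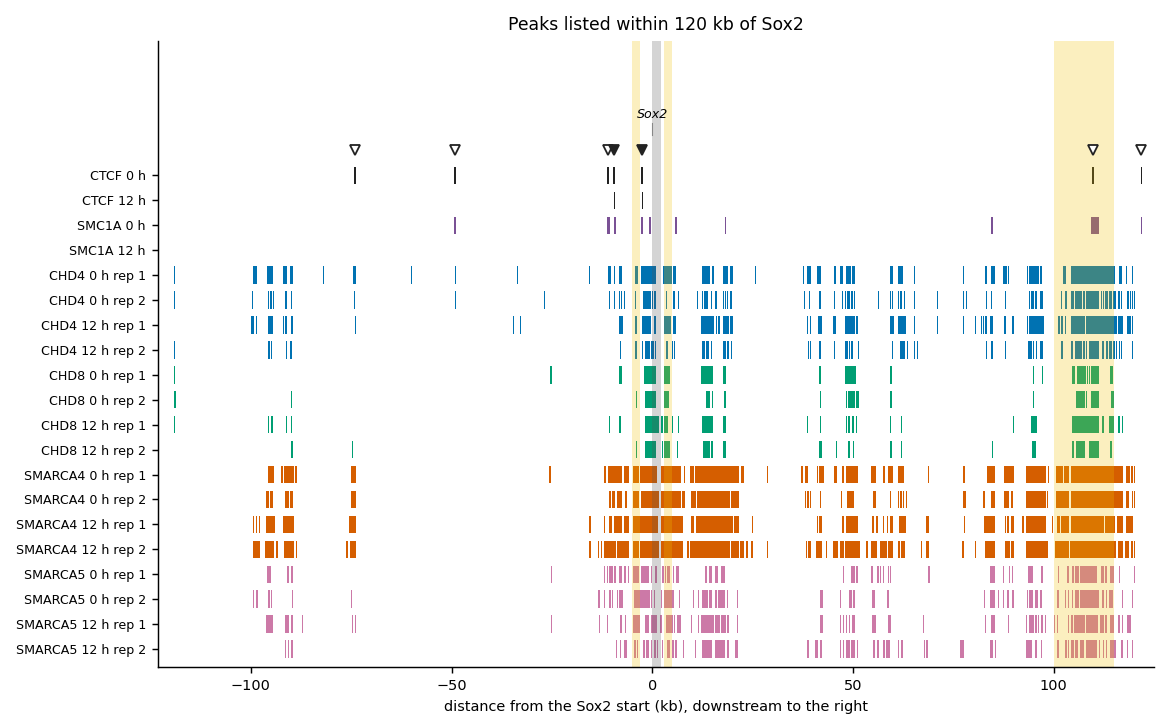
Peaks of each of the 20 libraries (rows) against the distance from the Sox2 start in kb, drawn as in the map of the Pou5f1 window, with yellow bands for SRR1, SRR2 and the control region. The kept CTCF sites 4 and 5 sit just upstream of the gene at -9.5 and -2.5 kb, and all 16 remodeler libraries have peaks in the control region at both times.

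The Sox2 promoter was listed in all 16 remodeler libraries at ranks below those of Pou5f1 and Nanog for CHD4 and SMARCA4. CHD4 ranks were 81.5 and 61.6 at 0 h and 91.7 and 78.3 at 12 h, and the times overlapped. SMARCA4 ranks were 95.7 and 97.5 at 0 h and 97.3 and 97.7 at 12 h, and CHD8 ranks were 59.8 and 71.5 at 0 h and 58.5 and 78.6 at 12 h. SMARCA5 ranks were 87.9 and 83.2 at 0 h and 69.2 and 81.2 at 12 h, so both 12 h libraries lay below both 0 h libraries, as at 8.38% of all promoters. The mean change over the remodelers was 1.70 points upward (exact permutation p = 0.742, adjusted p = 1).

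The Sox2 control region was among the most strongly remodeler-bound distal regions at both times, although its CTCF peak was no longer listed at 12 h. It holds distal region 32, chr3:34754786-34762940, which is 8155 bp wide, contains CTCF site 6 and had a median rank of 99.2 among distal regions. Its CHD4 ranks were 99.8 and 99.7 at 0 h and 99.2 and 99.3 at 12 h, and its CHD8 ranks 94.1 and 94.3 at 0 h and 91.8 and 93.5 at 12 h. Both remodelers separated downward, by small steps at the top of the scale. SMARCA5 separated upward, from 99.7 and 99.2 to 99.8 and 99.8, and SMARCA4 overlapped, with 99.7 and 97.8 against 98.8 and 98.5. The mean change was -0.454 points (exact permutation p = 0.252). For distal regions, both 12 h libraries lay below both 0 h libraries in 17% for CHD4 and 13.5% for CHD8, and above them in 12.1% for SMARCA5.

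SRR2, downstream of the gene and here distal region 8 at chr3:34652806-34655165, was listed in all 16 libraries, with a change of -1.55 points (exact permutation p = 0.656). Its SMARCA4 ranks were 98.7 and 94.3 at 0 h and 90.2 and 95.9 at 12 h, and its CHD8 ranks were 83.3 and 76.0 at 0 h and 85.8 and 81.3 at 12 h. CHD4 ranks were 81.7 and 83.2 at 0 h and 72.9 and 95.6 at 12 h, on either side of the earlier values. SRR1, upstream of the gene and here distal region 7 at chr3:34645944-34646951, was listed in 14 of 16 libraries because CHD8 had a peak in replicate 2 only. CHD4 ranks at SRR1 were 93.6 and 86.4 at 0 h and 75 and 76.8 at 12 h, so the times separated downward. The mean change at SRR1 was -7.31 points (exact permutation p = 0.367). SRR2 holds a match to the composite motif of POU5F1 and SOX2, searched as CATTGT, 1 free base and ATGCAAAT on both strands with at most 2 mismatches, at chr3:34654049-34654063 on the + strand. It is shown with the match in capitals because the region around it was listed in every remodeler library.
SRR2 composite match: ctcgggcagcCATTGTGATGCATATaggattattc

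Such a match was found in 3.99% of windows of the same length centred on the distal regions of the genome. The Sox2 promoter, SRR1 and the control region held no such match. Nor did the Pou5f1 promoter and upstream enhancers or the known Nanog enhancers, and only the Nanog promoter held another.

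Outside these elements the Sox2 window held distal regions listed in all 16 libraries at 13.7, 18, 49.3 and 94.7 kb, with median ranks of 87.2, 84.8, 80.2 and 85.2 and changes between -1.17 and 3.29 points. In all, 38 distal regions lay in the window, none of which passed an unadjusted p of 0.05. Regions 33 and 34, also inside the control region, share broad SMARCA4 and CHD4 peaks with region 32, so their ranks are not independent values.

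At the Nanog locus no CTCF peak of 0 h was listed at 12 h, and the window held the strongest cohesin peak of the 3 loci. CTCF site 6 at -37.9 kb had the highest CTCF fold of the window (30.5) and an SMC1A fold of 14, at the 98.9th percentile of the SMC1A list. Site 5 at -46.8 kb, inside the interval of the enhancer 45 kb upstream, had CTCF fold 10.7 and SMC1A fold 7.06. Sites 5 and 6 both carry their motif on the + strand. The site nearest the gene start was site 7 at -7.6 kb, in a repeat, with fold 6.52 and no cohesin. Site 8, past the end of the gene, lay nearer to the gene body. Downstream, site 8 at 12.7 kb (fold 14.2, SMC1A 5.71), site 9 at 32.7 kb (14.8, SMC1A 5.87), site 10 at 77.6 kb (10.8, SMC1A 10.1) and site 11 at 79.0 kb (8.08, SMC1A 5.39) were followed by site 12 at 97.1 kb (15.2, SMC1A 3.94). Farther upstream, site 2 in an untranslated part of Gdf3, a growth factor gene, had fold 13.8 and SMC1A fold 7.89, and site 3 at -93.2 kb had 21.4 and 9.87. Sites 1, 4, 13 and 14 carried no cohesin, site 13 lying in a coding exon of Foxj2, a forkhead factor gene. Sites 5 and 6 are shown because the remodeler values below turn on them.
Nanog CTCF site 5, chr6:122660667-122660683, + strand: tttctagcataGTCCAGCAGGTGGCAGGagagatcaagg
Nanog CTCF site 6, chr6:122669542-122669558, + strand: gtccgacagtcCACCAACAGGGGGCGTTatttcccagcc

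The 9 SMC1A peaks without CTCF around Nanog included 4 at or near elements known to drive the gene. They lay at 0.1 kb on the promoter (fold 4.71), at -4.8 kb in the enhancer 5 kb upstream (6.63, the highest without CTCF at the 3 loci), at -44.5 kb in the enhancer 45 kb upstream (4.51) and at 59.0 kb in the enhancer 60 kb downstream (5.68). The others lay at 3.8, 5.5, 19.2, 53.7 and 112.9 kb, with fold between 2.80 and 4.07.

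**Figure D3:**
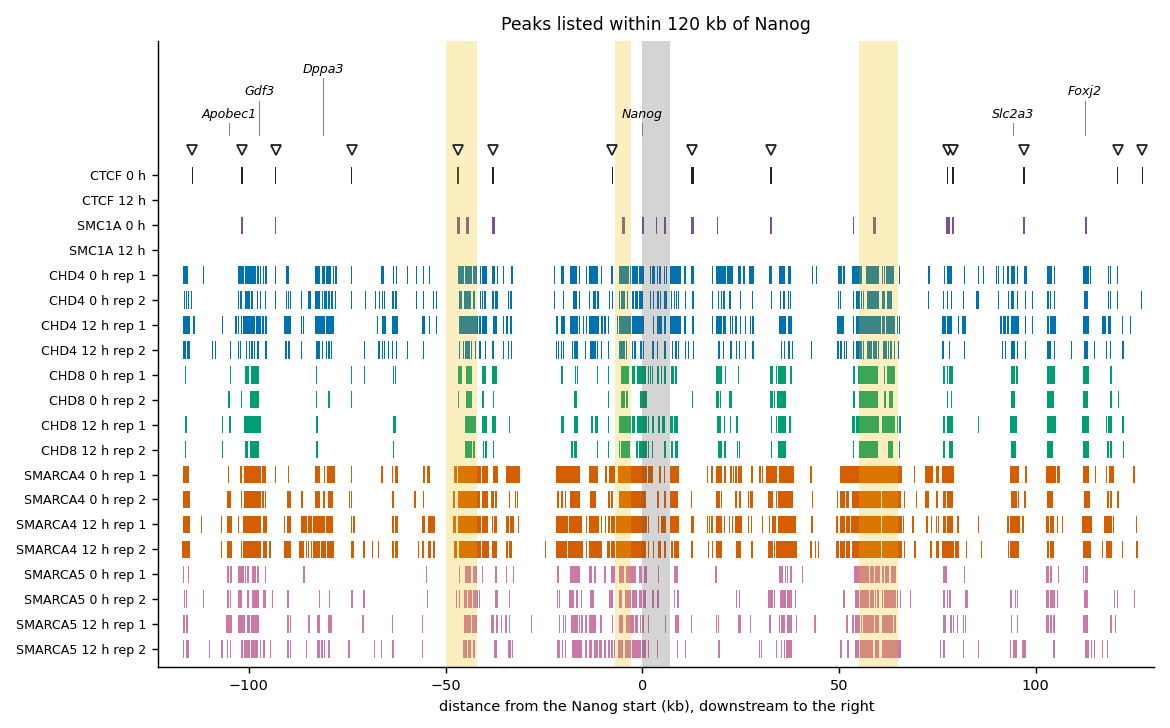
Peaks of each of the 20 libraries (rows) against the distance from the Nanog start in kb, drawn as in the map of the Pou5f1 window, with yellow bands for the enhancers 45 and 5 kb upstream and 60 kb downstream. All 14 CTCF sites are open triangles, since none is listed at 12 h, and each yellow band holds remodeler peaks at both times.

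The Nanog promoter was listed in all 16 remodeler libraries. CHD4 ranks were 98.9 and 99.3 at 0 h and 98.1 and 96.3 at 12 h, so both 12 h libraries lay below both 0 h libraries, as at 12% of all promoters. CHD8 ranks were 59.2 and 61.9 at 0 h and 65.1 and 67.3 at 12 h, so CHD8 separated upward, as at 12.8% of all promoters. SMARCA4 ranks were 99.9 and 99.8 at both times. SMARCA5 ranks were 94.6 and 91.0 at 0 h and 66.8 and 99.4 at 12 h, with the 12 h libraries on either side of the 0 h ones. The mean change over the remodelers was -1.48 points (exact permutation p = 0.940, adjusted p = 1). The broad SMARCA4 peaks, 7044 to 7840 bp wide, joined the promoter to the enhancer 5 kb upstream and had their summits at -4.63 to -4.69 kb, whereas the CHD4 summits lay at -0.11 to -0.16 kb and the CHD8 summits at -0.11 to 0.04 kb. The SMARCA4 rank at the Nanog promoter is thus the value of a peak that tops out in the enhancer.

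The Nanog promoter holds a composite match at chr6:122707413-122707427 on the - strand, 76 bp upstream of the start, with 1 mismatch, which lies close to the CHD4 and CHD8 summits. A match with at most 2 mismatches was found in 0.789% of all promoters. The 250 bases upstream of the RefSeq start, chr6:122707239-122707488 of GRCm38 on the + strand, are shown with that match in capitals as it reads on this strand.
Nanog promoter, upstream part: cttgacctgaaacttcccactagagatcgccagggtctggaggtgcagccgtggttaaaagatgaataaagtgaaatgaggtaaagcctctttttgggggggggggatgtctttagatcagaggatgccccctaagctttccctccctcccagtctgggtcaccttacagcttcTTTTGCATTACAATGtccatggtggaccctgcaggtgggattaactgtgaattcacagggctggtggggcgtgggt

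The Nanog enhancers kept high remodeler ranks at both times. The enhancer 5 kb upstream, distal region 24 at chr6:122701490-122704580, had a median rank of 98.6. Its CHD4 ranks were 99.3 and 93.7 at 0 h and 97.2 and 96.9 at 12 h, its CHD8 ranks 92.1 and 96.2 at 0 h and 90.2 and 92.2 at 12 h, and its SMARCA5 ranks 99.6 and 99.8 at 0 h and 98.9 and 99.8 at 12 h. SMARCA4 went from 99.2 and 98.8 to 98.7 and 98.4, below both 0 h values by a fraction of a point. The change over the remodelers was -0.789 points (exact permutation p = 0.414). The enhancer 60 kb downstream, in an intron of the glucose transporter gene Slc2a3, was region 41 at chr6:122761642-122767600, with a median rank of 98.9 and a change of -0.0836 points (exact permutation p = 0.792). Its 16 ranks lay between 97.2 and 99.8, the narrowest spread of the known enhancers described here.

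The enhancer 45 kb upstream fell into 2 neighbouring parts with different values. Region 11, chr6:122661822-122665365, without CTCF, had a change of 3.00 points (exact permutation p = 0.111), with CHD4 ranks of 93.6 and 95 at 0 h and 95.5 and 96.0 at 12 h. Region 10, chr6:122660771-122661538, which overlaps the CTCF peak of site 5, had a change of -27.2 points (exact permutation p = 0.0664). CHD8 at region 10 went from 71.6 and 68.6 to no peak in either 12 h library, and SMARCA5 from 57.7 and 45 to no peak. SMARCA4 stayed high, with 93.2 and 97.7 at 0 h and 98.7 and 98.6 at 12 h, from broad peaks that also cover region 11. CHD4 gave 44.2 and 76.0 at 0 h and 95.5 and 43.7 at 12 h, where the 95.5 is the value of a broad peak shared with region 11. Whether the 2 regions differed from each other was not tested. An octamer ATGCAAAT lies at chr6:122660761-122660768, inside the CTCF peak of site 5, and 37.8% of windows as long as the enhancer interval hold one. The exact octamer was absent from the other promoters and enhancers searched.
Nanog octamer in CTCF site 5: aagtattaggATGCAAATttagagaagg

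At all 3 loci some CTCF sites had a remodeler in both 0 h libraries and neither 12 h library. In the lists as deposited this was most often CHD4, which does not hold with lists of equal length. At a CTCF site, taken as 100 bp on either side of the 0 h CTCF summit, CHD4 was listed in both 0 h libraries and neither 12 h library at 14 of 39 sites (35.9%), 6 around Pou5f1, 2 around Sox2 and 6 around Nanog, beside 12% of all CTCF sites. The same loss was seen for CHD8 at 6 sites (background 4.52%), for SMARCA5 at 3 (2.38%) and for SMARCA4 at 1 (2.21%). At least 1 remodeler was lost at 19 of 39 sites, beside 18.4% of all, and 1 remodeler was gained at 1 site, SMARCA5 at Nanog site 6, beside 1.94% for any remodeler and 0.658% for SMARCA5. A loss can be counted only where a peak was listed at 0 h, and CHD4 replicate 1 at 0 h, for example, was listed at 16 of 18 Pou5f1 sites, 6 of 7 Sox2 sites and 11 of 14 Nanog sites, beside 46.8% of all CTCF sites. Without CHD4 replicate 2 the CHD4 count was 18 (all sites 25.4%), with lists shortened to equal length it was 3 (5.18%), and with peaks of −log10 q of at least 5 it was 7 (6.95%).

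**Figure D4:**
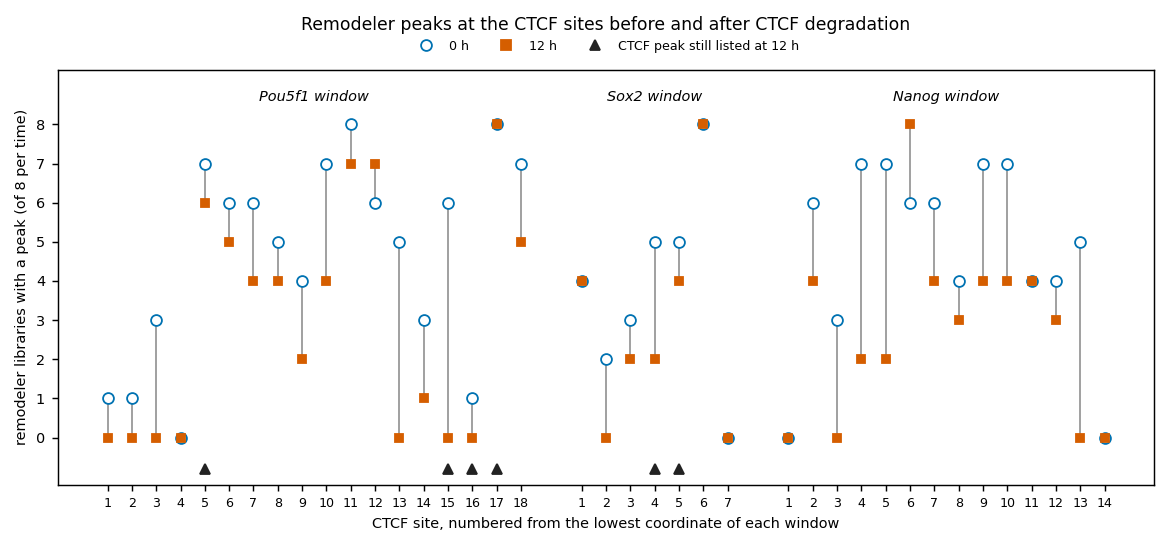
For each numbered CTCF site of the 3 windows (horizontal axis), the number of the 8 remodeler libraries with a peak at 0 h (open circle) and at 12 h (square), with a triangle below each site whose CTCF peak is still listed at 12 h. Pou5f1 site 15 falls from 6 to 0 with its CTCF peak still listed at 12 h, at fold 13.6 against 49.1 at 0 h. Nanog site 6 rises from 6 to 8 although its CTCF peak is no longer listed.

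The site with the largest negative rank change of the 39 was one whose CTCF peak was still listed at 12 h, at a lower fold. Pou5f1 site 15 had the highest CTCF fold of the windows at 0 h, 49.1, and a fold of 13.6 at 12 h. It was covered in 6 of 8 remodeler libraries at 0 h and 0 of 8 at 12 h. Its CHD4 ranks among CTCF sites were 94.0 and 93.5, its CHD8 ranks 80.0 and 90.6 and its SMARCA5 ranks 94.1 and 84.7 at 0 h, and all were 0 at 12 h (change -67.1, exact permutation p = 0.00926). The lost site Pou5f1 13 went from 5 libraries to 0 (change -53.4, exact permutation p = 0.0278) and the lost site Nanog 13 also from 5 to 0 (-50.9, p = 0.0417, exact). Nanog sites 4 and 5 went from 7 libraries to 2 (changes of -46.9 and -52.3, both exact permutation p = 0.0278). The 2 libraries left were those of SMARCA4 at both sites. At Nanog site 5 their ranks were 99.8 and 99.8 against 98.9 and 99.7 at 0 h, from the broad peaks over the neighbouring part of the enhancer.

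Other CTCF sites kept their remodeler peaks. Pou5f1 site 17 and Sox2 site 6 were listed in all 16 libraries, as 2.32% of CTCF sites were. The CTCF peak of the former was still listed at 12 h and that of the latter was not. Pou5f1 site 12, without a motif match, had a change of 17.4 points (exact permutation p = 0.00926), with SMARCA4 at 69.0 and 82.2 at 0 h and 93.1 and 86.7 at 12 h. Nanog site 7 in its repeat had a change of -21.7 points (exact permutation p = 0.00926), from CHD4 at 85.6 and 71.3 to no peak. SMARCA5 went there from 95.5 and 96.6 to 90.8 and 92.5 and SMARCA4 from 86.8 and 86.2 to 84.9 and 80.7, so both also separated downward while still listed. No remodeler peak was listed at Pou5f1 site 4, Sox2 site 7 and Nanog sites 1 and 14 in any library. In all, 6 of 39 sites were lower and 1 higher at an unadjusted exact permutation p under 0.05, beside 2.9% and 1.48% of all CTCF sites (4.38% in either direction). A site without a remodeler peak in any library cannot be called. Such sites were 4 of the 39 but 11584 of all 29934, which lowers the shares over all sites. The counts are therefore not read as an excess in the windows. The count of lower sites was 2 with −log10 q of at least 5 (2.25% of all sites in either direction), 3 with equal list lengths (2.69%) and 3 with a replicate block (2.95%). Of the 39 sites, 0 passed after Benjamini-Hochberg adjustment (adjusted p between 0.714 and 1), here or anywhere in the genome. The smallest p that the relabellings of the 16 libraries can give is 0.00154, and within a remodeler 2 libraries against 2 allow none below 0.333.

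Most distal regions with a CTCF peak at 0 h ranked lower at 12 h, and most of those without one ranked higher. Of 19 regions with CTCF in the windows, 16 (84.2%) ranked lower at 12 h, with a median change of -9.98 points. Around Nanog it was 7 of 7 (median -25.5), around Pou5f1 7 of 9 (median -7.37) and around Sox2 2 of 3 (median -0.454). Over the genome 2736 of 3721 regions with CTCF (73.5%) ranked lower, with a median of -7.70. Of 93 regions without CTCF in the windows, 38 (40.9%) ranked lower, with a median of 1.73, beside 42.9% and 1.78 over the genome. A rank is taken among all distal regions, so a fall at some regions can by itself raise the others. The median change over all distal regions was also positive. The rise without CTCF is therefore not read as a gain of remodeler, and the values compare the regions with CTCF and those without only relative to each other. The count of 16 of 19 was the same without CHD4 replicate 2, with lists of equal length and with ranks by fold enrichment.

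Single distal regions around Nanog differed between the times in both directions, none past the adjusted threshold. Region 14, which surrounds CTCF site 6, had a change of -25.8 points (exact permutation p = 0.00309, adjusted p = 0.314): CHD4 went from 86.1 and 94.0 to 45.3 and 51.3, CHD8 from 90.4 and 82.4 to 54.3 and 75.3 and SMARCA4 from 64.2 and 72.1 to 21.1 and 57.8. For these 3 remodelers both 12 h libraries lay below both 0 h libraries, as at 17%, 13.5% and 22.1% of distal regions, and SMARCA5 overlapped, with 70.8 and 83.9 against 60.6 and 71.9. Ranked among CTCF sites instead, site 6 itself had a change of 21 points (exact permutation p = 0.313): SMARCA5 was listed there in 0 libraries at 0 h and 2 at 12 h, while CHD4 separated downward. The sign of the value at this place thus differs between the wide region and the narrow site. Region 21 at -12.4 kb, which was singled out after its values were seen, had a change of 25.7 points with the smallest p the design allows (exact permutation p = 0.00154, adjusted p = 0.314). Its CHD4 ranks were 79.8 and 73.1 at 0 h and 96.0 and 84.6 at 12 h, its CHD8 ranks 40.8 and 0 against 55.6 and 59.0, its SMARCA4 ranks 46.8 and 53.4 against 73.4 and 73.1, and its SMARCA5 ranks 81.6 and 54.5 against 96.0 and 98.3. All 4 remodelers separated upward there, as each did at 16.5% (CHD4), 14.5% (CHD8), 20.1% (SMARCA4) and 12.1% (SMARCA5) of distal regions, and the region held neither a CTCF nor an SMC1A peak. Over the 112 regions, 5 were lower and 7 higher at an unadjusted p under 0.05, beside 5% and 5.12% of all distal regions, and 0 passed adjustment, here or in the genome.

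**Figure D5:**
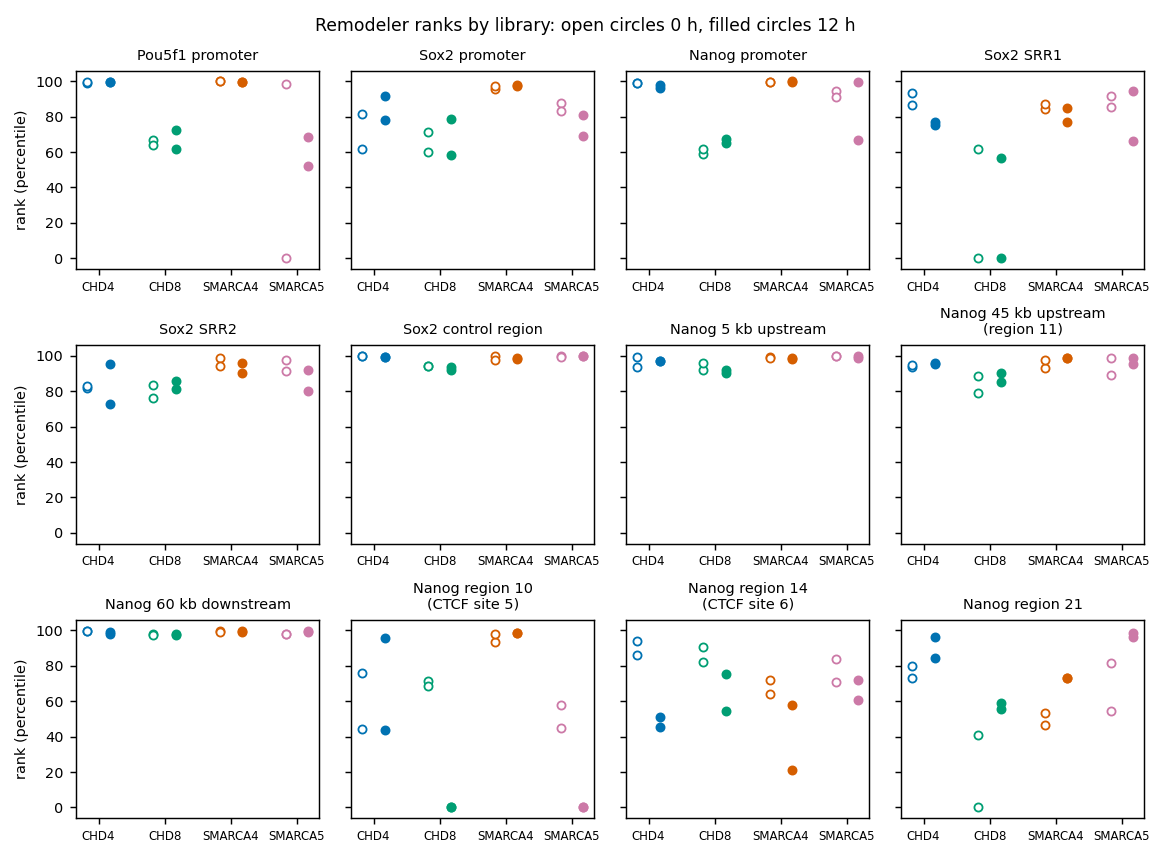
Rank (percentile among features of the class, 0 to 100) in each of 16 libraries for the 3 promoters, the known Sox2 and Nanog enhancers and 3 other Nanog regions, by remodeler, with open points for 0 h and filled points for 12 h. The control region, the enhancers 5 kb upstream and 60 kb downstream of Nanog and the SMARCA4 values of all 3 promoters stay above 90 at both times, while most 12 h points lie below the 0 h points at Nanog region 14 and all lie above them at region 21.

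The promoters of neighbouring genes were set beside those of the 3 genes. The Pou5f1 window touches 11 protein-coding genes, the Sox2 window Sox2 alone and the Nanog window 6, among them Dppa3, a maternal factor gene, Gdf3 and Slc2a3. Dppa3 is counted with the pluripotency genes below, which leaves 14 neighbours. Its own promoter was listed in 9 libraries, with a change of 20.1 points (exact permutation p = 0.0556). Of the 14, 2 were listed in all 16 libraries, as were 2 of the 3 members and 24.9% of all promoters. The third member, Pou5f1, and the neighbour Slc2a3 were each listed in 15. The neighbours Sfta2 and Gm9573 were listed in none. No neighbour passed an unadjusted p of 0.05. Those that separated by time in at least 2 remodelers were Foxj2 (change -2.84, exact permutation p = 0.463), H2-Q7 (10.9, p = 0.427, exact), Tcf19 (6.19, p = 0.759, exact), Cchcr1 (-0.952, p = 0.843, exact) and 2300002M23Rik (13.1, p = 0.370, exact). At H2-Q7, a copy-rich histocompatibility gene whose reads may be shared, SMARCA4 had no peak at 0 h and a mean rank of 44.6 ± 0.4 (SD, n = 2) at 12 h. Tcf19 and Cchcr1 start next to each other and share most of their peaks.

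Among 22 other genes of the pluripotency network, among them Klf2, Klf4, Esrrb and Tet2, 0 promoters passed the test, adjusted or at an unadjusted p under 0.05, beside 2.59% of all promoters lower and 2.64% higher unadjusted (5.23% in all). The promoters of 10 were listed in all 16 libraries and those of 2, Fgf4 and Nr5a2, in none. Their median change was 0.0426 points, beside 0 for all promoters.

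The 3 promoters nearest to each of the 3 genes by their 16 ranks were picked from all 21951 promoters. None belongs to the 22 pluripotency genes. With so few promoters named, that says nothing about likeness to the list. The measure was the Euclidean distance between the 16 ranks, whose median over all promoters was 199 for Pou5f1, 190 for Sox2 and 214 for Nanog. The nearest to Pou5f1 were Tinagl1 (22.1), Urm1 (29.0) and Nid2 (34.4). The nearest to Sox2 were Klf10 (24.6), Chic2 (29.3) and Cdc42ep4 (30.1), and the nearest to Nanog were Tmem200b (21.1), Gtf2ird1 (22.1) and Rnf182 (22.1).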

How the data were processed

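Of 30 samples, 20 ChIP libraries had peak lists; the 10 inputs are not analysed here. The submitters' processing notes name Trim Galore, Bowtie2, MACS2 and deepTools, without versions, and the builds mm10 and hg38; the control used for calling is not given in the sources used here, and coordinates were read as GRCm38. Each narrowPeak list deposited by the authors gives, per peak and library, a fold enrichment (a ratio), −log10 p, −log10 q, a score and a summit. All listed peaks had −log10 q of at least 1.3 in the deposited files. Depth is unknown. An overlap was at least 1 bp.

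The 3 genes, the enhancer intervals and the gene lists were chosen with earlier results of these data known. Named features followed a rule: the 3 genes, every CTCF site, regions in known enhancers or listed in most libraries, neighbours separating in at least 2 remodelers or passing the test, and the 3 nearest profiles; others are said to be picked afterwards. Rank changes were tested with an exact permutation test, two-sided, that exchanged the times within each remodeler in every way, with Benjamini-Hochberg adjustment over 29934 CTCF sites, 21951 promoters or 42675 distal regions at 0.05. The test was checked on simulated data. Python 3.11.15, numpy 2.4.6, pandas 2.3.3, scipy 1.17.1 and pysam 0.24.0 were used. Alternatives covered thresholds, list length, ranking, window, overlap, leaving out each library and a replicate block. The motif sequences of the other CTCF sites are not reported here.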

Additional observations from a re-analysis of the deposited data

Results flagged for a closer look

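At the Nanog promoter, the mean rank change was -1.88 points for CHD4 and 5.67 points for CHD8, with both 12 h libraries below both 0 h libraries for CHD4 and above them for CHD8. All libraries of the first moved one way and all of the second the opposite way, which is what drew attention to the pair. The difference between the remodelers was not tested.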

How the results depend on the processing

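No promoter, CTCF site or distal region of the 3 windows passed the adjusted threshold in any fit with 1 library left out (0 in each). The same held under the other alternatives, except that 6 CTCF sites passed when unlisted features shared their mean rank. Of these 6, 1 was lower and 5 higher at 12 h, and 4 had no peak in any library. Over the genome 11584 of 12667 such calls had none, so that setting calls sites without any peak by its construction. The remaining calls had remodeler peaks, and this does not account for them. The promoter changes, which never passed, turned sign with the setting. Pou5f1 was at -11.8 with −log10 q of at least 5, -3.24 with equal list lengths and -0.524 with mean ranks for unlisted features. Sox2 was at -6.94 with −log10 q of at least 5 and -1.44 with promoters of 1 kb to either side. With 1 library left out, Pou5f1 ran from -9.01 (without SMARCA5 0 h replicate 1) to 15.6, Sox2 from -0.7995 (without CHD8 12 h replicate 2, and -0.790 without CHD4 0 h replicate 2) to 4.21, and Nanog from -5.56 to 2.60 (without SMARCA5 12 h replicate 1). The count of CTCF sites that lost CHD4 was 3 with equal list lengths and 7 with −log10 q of at least 5, against 14. For any remodeler it was 12 and 12, against 19. The share of all CTCF sites under these 2 settings is not given for any remodeler, so those counts are not read as an excess. The share of CTCF peaks with SMC1A was 100% in a 60 kb window around Sox2, and around Pou5f1 29.4% with −log10 q of at least 5 and 63.6% in the upper part of the list. The causes were not tested. A replicate block left the changes at 3.29, 1.70 and -1.48 points, with exact permutation p of 0.688, 0.695 and 0.891 for Pou5f1, Sox2 and Nanog, and 0 features passed. Same-numbered libraries shared little (correlations of their deviations from -0.149 to 0.208 across features), so the numbers were not taken as pairs. The lists give no depth, and CTCF and SMC1A have 1 library per time.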
